A study of Arabidopsis thaliana with 9 samples.

Results

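The transcripts of 8 genes that join ammonium to amino acids or release it were followed in *Arabidopsis* leaves that carried *Pieris brassicae* eggs or had been treated with egg extract (EE). They are the cytosolic glutamine synthetases *GLN1.1* (AT5G37600), *GLN1.2* (AT1G66200), *GLN1.3* (AT3G17820) and *GLN1.4* (AT5G16570), the chloroplast glutamine synthetase *GS2* (AT5G35630), the glutamate dehydrogenases *GDH1* (AT5G18170) and *GDH2* (AT5G07440), and the asparagine synthetase *ASN2* (AT5G65010). They were taken by their gene identifiers, from a list drawn up with earlier results of these data known, and all 8 were among the 17605 genes of the deposited table. The 9 libraries came from leaves of Col-0 plants, which all groups shared, at an age of about 5 weeks. Of these, 3 came from untreated control plants, 3 from plants that had spent 24 h with *P. brassicae* butterflies and were harvested 4 days later, and 3 from plants treated with EE for 5 days. For oviposition, 4 plants with an egg batch on each of 2 leaves were used, and the eggs were taken off just before they hatched. For EE, 2 drops of 2 µL were placed under each of 2 leaves on 4 plants. The labels name no mock treatment for either. RNA came from 3 biologically independent experiments, and the comparisons ask whether oviposition, EE or the choice between them went with a change in leaf transcripts.

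Glutamine synthetase fixes ammonium onto glutamate, and glutamate synthase then passes the amide nitrogen of glutamine to 2-oxoglutarate, which regenerates glutamate. In leaves the chloroplast enzyme GS2 takes up the ammonium set free by photorespiration, whereas the cytosolic enzymes supply glutamine for transport and remobilize nitrogen when leaves age. Glutamate dehydrogenase of mitochondria mostly runs towards ammonium and 2-oxoglutarate, and asparagine synthetase moves the amide group of glutamine to aspartate, giving a nitrogen-rich amino acid for transport.

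The 5 glutamine synthetases are close relatives, so a stretch of their coding sequences is shown to let a reader see how far reads of one could be taken for reads of another. Each line gives 100 coding bases, 5′ to 3′, around the longest run that *GLN1.1* and *GLN1.2* share, and capitals mark the bases that differ from *GLN1.1*. The stretch starts at coding base 864 in *GLN1.1*, *GLN1.3* and *GLN1.4*, at 891 in *GLN1.2* and at 1038 in *GS2*, counted from the start codon. All sequences are from RefSeq, assembly TAIR10.1.
GLN1.1: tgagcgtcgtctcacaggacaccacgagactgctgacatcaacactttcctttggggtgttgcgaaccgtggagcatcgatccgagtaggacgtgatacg
GLN1.2: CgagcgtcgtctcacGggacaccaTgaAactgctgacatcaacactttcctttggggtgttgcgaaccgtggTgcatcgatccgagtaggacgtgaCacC
GLN1.3: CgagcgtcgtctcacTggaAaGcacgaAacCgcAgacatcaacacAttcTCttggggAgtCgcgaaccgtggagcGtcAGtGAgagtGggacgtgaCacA
GLN1.4: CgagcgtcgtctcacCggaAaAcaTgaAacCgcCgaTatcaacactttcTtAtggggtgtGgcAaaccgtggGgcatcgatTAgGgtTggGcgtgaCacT
GS2: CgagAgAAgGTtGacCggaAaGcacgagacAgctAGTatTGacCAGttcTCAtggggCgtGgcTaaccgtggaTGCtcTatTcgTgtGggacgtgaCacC

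In this stretch 7 bases of *GLN1.2* differed from *GLN1.1*, against 20 in *GLN1.3*, 21 in *GLN1.4* and 34 in *GS2*. Over the aligned coding sequences *GLN1.1* and *GLN1.2* were identical at 87.5% of positions and shared no run longer than 44 bases. The other pairs of cytosolic genes were identical at 76.3% to 79.3% of positions, and *GS2* at 71.2% to 72.6% with each of them. No window of 100 bases was shared between the transcripts of any pair of the 8 genes.

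The glutamate dehydrogenases are shown in the same way, because *GDH2* was a member that passed the test in EE against control. Both lines start at coding base 160, and capitals mark the bases of *GDH2* that differ from *GDH1*.
GDH1: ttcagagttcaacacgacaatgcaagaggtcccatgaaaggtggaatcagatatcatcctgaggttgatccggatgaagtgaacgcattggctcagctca
GDH2: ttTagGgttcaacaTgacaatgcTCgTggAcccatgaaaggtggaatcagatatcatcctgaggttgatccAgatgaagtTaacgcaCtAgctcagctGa

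Here 12 of 100 bases differed. *GDH1* and *GDH2* were identical at 74.5% of aligned coding positions, with a longest shared run of 41 bases, and both have a coding sequence of 1236 bases. The genes lie apart on chromosome 5 of TAIR10, *GDH1* at 6006039 to 6008472 and *GDH2* at 2355937 to 2358194, both on the plus strand.

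Of the other genes, *GLN1.1* (14933336 to 14935841, minus strand), *GLN1.4* (5421743 to 5424566, minus strand), *GS2* (13830429 to 13833542, plus strand) and *ASN2* (25969189 to 25972575, plus strand) are also on chromosome 5. *GLN1.2* is on chromosome 1 at 24655210 to 24657683 on the minus strand, and *GLN1.3* on chromosome 3 at 6097414 to 6099595 on the plus strand.

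The values are log2 CPM as deposited, that is, reads of a gene over a library size that the authors' normalization adjusted rather than over the total of its reads. The library size that fitted the values was 0.700 (control replicate 3) to 1.196 (EE replicate 2) times the recovered reads. The log2 values of each library were also multiplied by a factor of 0.988 to 1.015, and all 9 libraries have the same median. Recovered reads summed to 37348236 to 47057692 per library, and the 8 genes had from 269 reads (*GLN1.4*, control) to 58025 reads (*GS2*) in a library. The leaf label was checked with marker genes fixed for this work. All 4 mesophyll markers were present with at least 2147 reads in each library, the 3 seed and 3 flower markers were not among the genes of the table, and of 3 root markers *SCR* and *SHR*, which leaf bundle sheath also expresses, were present and *SMB* was not. In all 3 groups the library with replicate number 2 stood apart from replicates 1 and 3: over all genes, the 3 replicate 2 libraries lay above the other 6 for 8.66% and below them for 9.81%. This touches 4 of the 8 genes and is described with their values. In bulk leaf tissue, fewer cells of a type and less RNA per cell cannot be told apart.

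*GDH2* was the only one of the 8 genes that passed the test in the fit of all libraries without replicate block or library weights. EE-treated leaves held about 4.43 times the *GDH2* level of control leaves, and oviposited leaves lay between. *GDH2* encodes the alpha subunit of the mitochondrial enzyme. In control libraries 1, 2 and 3 its log2 CPM was 4.02, 3.93 and 4.87. After oviposition it was 4.89, 5.90 and 5.21, and after EE 6.64, 5.86 and 6.75. Every oviposited and every EE-treated library lay above every control library, while the oviposited and EE-treated libraries overlapped through replicate 2, where both treatments were nearly equal.

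For EE against control the log2 fold change of *GDH2* was 2.15 ± 0.37 (SE), with a 95% confidence interval of 1.302 to 2.995 and an adjusted p of 0.0168 in limma over all genes. In libraries of the same number the difference was 2.63, 1.93 and 1.89 on the log2 scale. For oviposition against control the log2 fold change was 1.06 ± 0.37, with an interval of 0.21 to 1.91, and it did not pass the test (adjusted p = 0.402 in limma). Compared directly, EE and oviposition differed by 1.09 ± 0.37 (interval 0.24 to 1.94), which did not pass the test over all genes (adjusted p = 0.999 in limma). The call for EE was lost when control replicate 1, EE replicate 1 or EE replicate 3 was left out (adjusted p of 0.0685, 0.0904 and 0.0928 in limma, with log2 fold changes of 2.02, 2.04 and 1.98). With replicates 1 and 3 only, it stood at 2.26 (adjusted p = 0.0382 in limma).

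**Figure D1:**
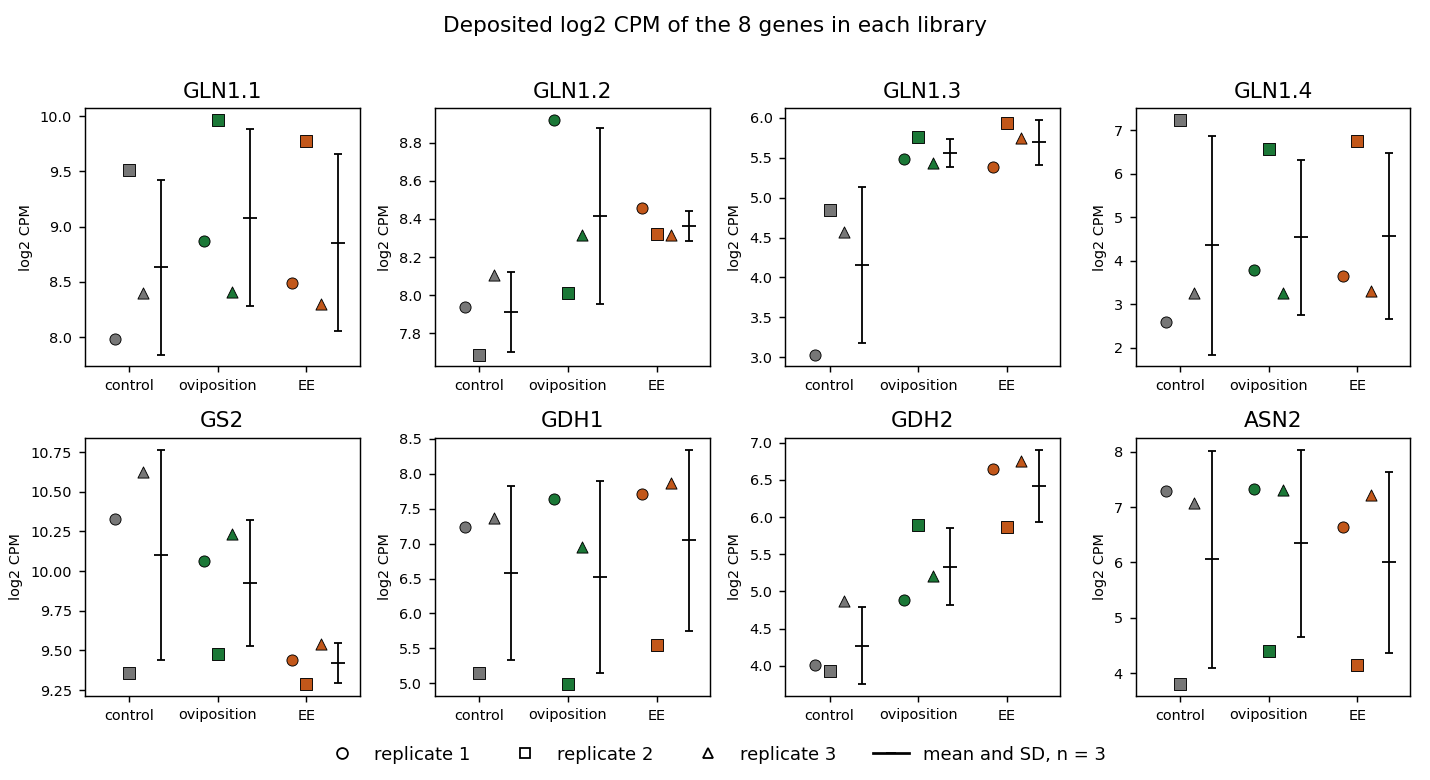
Deposited log2 CPM (vertical axes, which differ between panels) of the 8 genes in each of the 9 libraries, by group and replicate number, with the mean and SD of each group (n = 3). GDH2 lies between 3.93 and 4.87 in control and between 5.86 and 6.75 after EE, and the replicate 2 libraries stand apart for GLN1.1, GLN1.4, GDH1 and ASN2.

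*GDH1*, which encodes the beta subunit, did not pass the test in any comparison. Its log2 CPM was 7.24, 5.15 and 7.37 in control, 7.64, 4.99 and 6.95 after oviposition and 7.72, 5.55 and 7.87 after EE. In each group replicate 2 was the lowest, and the groups overlapped. Each EE-treated library exceeded the control of its number, but the log2 fold change of 0.46 ± 0.89 had an interval of -1.56 to 2.49 (adjusted p = 0.878 in limma). The differences within replicate numbers were 0.48, 0.40 and 0.51, and with the replicate number as a block the interval was -0.07 to 0.995 (adjusted p = 0.339 in limma). For oviposition the log2 fold change of *GDH1* was -0.06 ± 0.89.

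Among the glutamine synthetases *GLN1.3* had the largest differences from control, about 2.66-fold higher after oviposition and 2.91-fold higher after EE. Neither passed the test in the fit of all libraries without replicate block or library weights. *GLN1.3* encodes a cytosolic isoform known from the vascular tissue of roots. Its log2 CPM was 3.03, 4.85 and 4.57 in control, 5.48, 5.76 and 5.44 after oviposition and 5.39, 5.94 and 5.75 after EE. All 6 libraries of treated leaves lay above all 3 controls, and control replicate 1, with 368 reads of this gene, lay farthest below the rest of its group.

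The log2 fold change of *GLN1.3* for oviposition was 1.41 ± 0.43 with an interval of 0.44 to 2.38 (adjusted p = 0.258 in limma). For EE it was 1.54 ± 0.43 with an interval of 0.57 to 2.52 (adjusted p = 0.122 in limma). With the replicate number as a block, the EE comparison gave the same fold change and an adjusted p of 0.0497 in limma, which passed the threshold. EE and oviposition differed by 0.13 ± 0.43 for this gene (interval -0.84 to 1.11). Without control replicate 2, EE against control gave 1.89 and an adjusted p of 0.0477 in limma, and without control replicate 1 it gave 0.98 and 0.112. For oviposition, leaving out control replicate 1 gave 0.85 (adjusted p = 0.270 in limma).

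*GLN1.2*, the cytosolic isoform with the most even levels here, had log2 CPM of 7.94, 7.69 and 8.11 in control, 8.92, 8.01 and 8.32 after oviposition and 8.46, 8.32 and 8.31 after EE. The EE-treated libraries lay just above all controls, whereas the oviposited ones overlapped with them. The log2 fold changes were 0.51 ± 0.28 for oviposition and 0.45 ± 0.28 for EE, with intervals of -0.14 to 1.15 and -0.19 to 1.096, and neither passed the test (adjusted p = 0.865 and 0.590 in limma).

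*GLN1.1* and *GLN1.4*, both known from work on roots as isoforms with a high affinity for ammonium, differed more between replicate numbers than between treatments. *GLN1.1* had log2 CPM of 7.98, 9.51 and 8.40 in control, 8.87, 9.97 and 8.41 after oviposition and 8.49, 9.77 and 8.30 after EE. For *GLN1.4* the values were 2.58, 7.23 and 3.26, then 3.79, 6.58 and 3.25, then 3.64, 6.76 and 3.31. The replicate 2 library was the highest of its group in all 6 cases, and the groups overlapped for both genes. Against control, the log2 fold change of *GLN1.1* was 0.45 ± 0.58 for oviposition and 0.22 ± 0.58 for EE. That of *GLN1.4* was 0.18 ± 1.41 and 0.21 ± 1.41, with intervals that reached from about -3.03 to 3.42 over both. These intervals include the spread between replicate numbers. Within replicate numbers, EE against control differed by 1.06, -0.47 and 0.05 for *GLN1.4*, and with the replicate number as a block the interval was -0.61 to 1.03 around the same fold change (adjusted p = 0.808 in limma).

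*GS2*, the chloroplast isoform, had the highest level per kilobase of the 8 genes in replicates 1 and 3 of every group. Its log2 CPM was 10.33, 9.36 and 10.62 in control, 10.06, 9.47 and 10.23 after oviposition and 9.44, 9.29 and 9.54 after EE. Each EE-treated library was below the control and below the oviposited library of its number, with a difference of -0.89, -0.07 and -1.08 from control in replicates 1, 2 and 3. The groups overlapped because control replicate 2 was low. The log2 fold change was -0.68 ± 0.42 for EE, with an interval of -1.63 to 0.26 (adjusted p = 0.577 in limma), and -0.18 ± 0.42 for oviposition (interval -1.13 to 0.77). All 4 mesophyll markers had a negative log2 fold change after EE, and none passed the test. Each marker was above control after EE in 1 of the 3 replicate numbers. In replicate 1, *CAB1*, *CAB2* and *RCA* were higher after EE than in control and *RBCS1A* was lower. The summed level of the markers was 11376 to 105771 CPM in control, 11738 to 70884 CPM after oviposition and 9559 to 34810 CPM after EE. Their part in the *GS2* values was not tested.

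*ASN2*, the asparagine synthetase that light induces, showed no difference between groups that stood out from its spread. Its log2 CPM was 7.30, 3.80 and 7.07 in control, 7.33, 4.40 and 7.32 after oviposition and 6.64, 4.15 and 7.23 after EE. The replicate 2 libraries were far below all others in each group. The log2 fold changes were 0.29 ± 1.196 for oviposition and -0.05 ± 1.196 for EE, with intervals of -2.42 to 3.00 and -2.76 to 2.66. With the replicate number as a block, the interval for EE was -0.61 to 0.50.

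Counted over the 8 genes, oviposition against control gave 0 calls in limma at an adjusted p under 0.05, where 1.5% of all genes were called, and 2 genes had an unadjusted p under 0.05, as did 7.69% of all genes. None of the alternatives run, voom on recovered reads included, called a member in this comparison. EE against control gave 1 call, a rise, where 3.02% of all genes were called in either direction and 2.73% as higher. With the replicate number as a block it gave 2 calls, *GDH2* and *GLN1.3*, where 4.4% of all genes were called. EE against oviposition gave 0 calls where 0.017% of genes were called, with 1 member (*GDH2*) at an unadjusted p under 0.05, as for 2.85% of all genes. The libraries did not overlap for 2 members in oviposition against control, where 9.24% of all genes did not, for 3 in EE against control (18.8% of all genes) and for 0 in EE against oviposition (10.3%). Over the 8 genes the log2 fold changes had a median of 0.37 for oviposition and 0.34 for EE, beside -0.02 and -0.04 over all genes. Both comparisons share the control libraries.

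**Figure D2:**
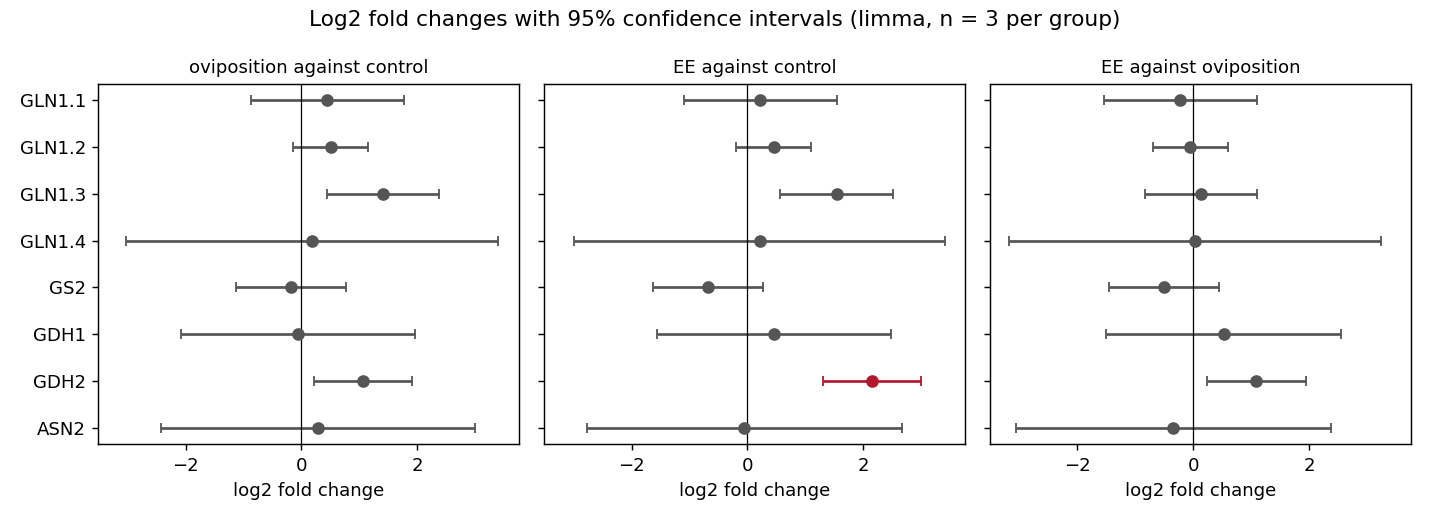
Log2 fold changes (horizontal axes) of the 8 genes in the 3 comparisons, with 95% confidence intervals from limma (n = 3 per group). The single red point, GDH2 in EE against control at 2.15, has an adjusted p under 0.05, and the widest intervals are those of GLN1.4, ASN2 and GDH1.

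To compare levels between genes, the log2 CPM was taken per kilobase of annotated exon. In control leaves the order was *GS2* (9.03), *GLN1.1* (7.97), *GLN1.2* (7.16), *GDH1* (5.70), *ASN2* (4.90), *GLN1.4* (3.60), *GLN1.3* (3.51) and *GDH2* (3.26). The only neighbours whose libraries did not overlap were *GLN1.2* and *GDH1*, and this held in each of the 3 groups. After oviposition the first 5 places were the same, followed by *GLN1.3* (4.92), *GDH2* (4.32) and *GLN1.4* (3.78). After EE *GDH2*, at 5.41, stood between *GDH1* (6.16) and *GLN1.3* (5.06), and *ASN2* (4.85) and *GLN1.4* (3.82) came last.

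The balance between isoforms was described as a share of summed CPM within each library, in which the library size cancels. The factor on the log2 values does not, and the shares were not corrected for length. The cytosolic glutamine synthetases made up 28.5%, 63.0% and 29.1% of all 5 in control, 48.5%, 66.4% and 37.2% after oviposition and 52.5%, 68.6% and 48.4% after EE. The mean share was 40.2% ± 19.7 in control, 50.7% ± 14.7 after oviposition and 56.5% ± 10.7 after EE (SD, n = 3). In each replicate number both treatments were above control, while the groups overlapped because control replicate 2 was as high as treated libraries. The difference of means from control was 10.5 percentage points for oviposition. When 1 control library was left out it became 4.67 (replicate 1), 21.9 (replicate 2) or 5.00 (replicate 3), and dropping oviposition replicate 2 or 3 gave 2.68 or 17.3. For EE the difference was 16.3 points, which became 10.4, 27.7 or 10.8 when control library 1, 2 or 3 was dropped and 10.2 when EE replicate 2 was. Within the cytosolic isoforms, *GLN1.1* and *GLN1.2* together held most of the CPM. *GLN1.3* held 1.60%, 2.58% and 3.67% in control, 4.44%, 3.86% and 6.08% after oviposition and 5.47%, 4.50% and 7.72% after EE, with no overlap between control and either treatment. From recovered reads, control replicate 3 (3.805%) and oviposition replicate 2 (3.800%) overlapped, whereas EE and control did not.

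*GDH1* made up 90.3%, 69.9% and 85.0% of the summed *GDH1* and *GDH2* CPM in control. After oviposition the share was 87.1%, 34.7% and 77.0%, and after EE 67.8%, 44.5% and 68.5%. All EE-treated libraries were below all controls, but oviposited libraries spanned both. In replicate 2, *GDH2* was above *GDH1* after either treatment, also per kilobase, and in no other library. Without oviposition replicate 2, the mean share after oviposition differed from control by 0.28 percentage points, against -15.5 with it, and without oviposition replicate 1 by -25.9.

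**Figure D3:**
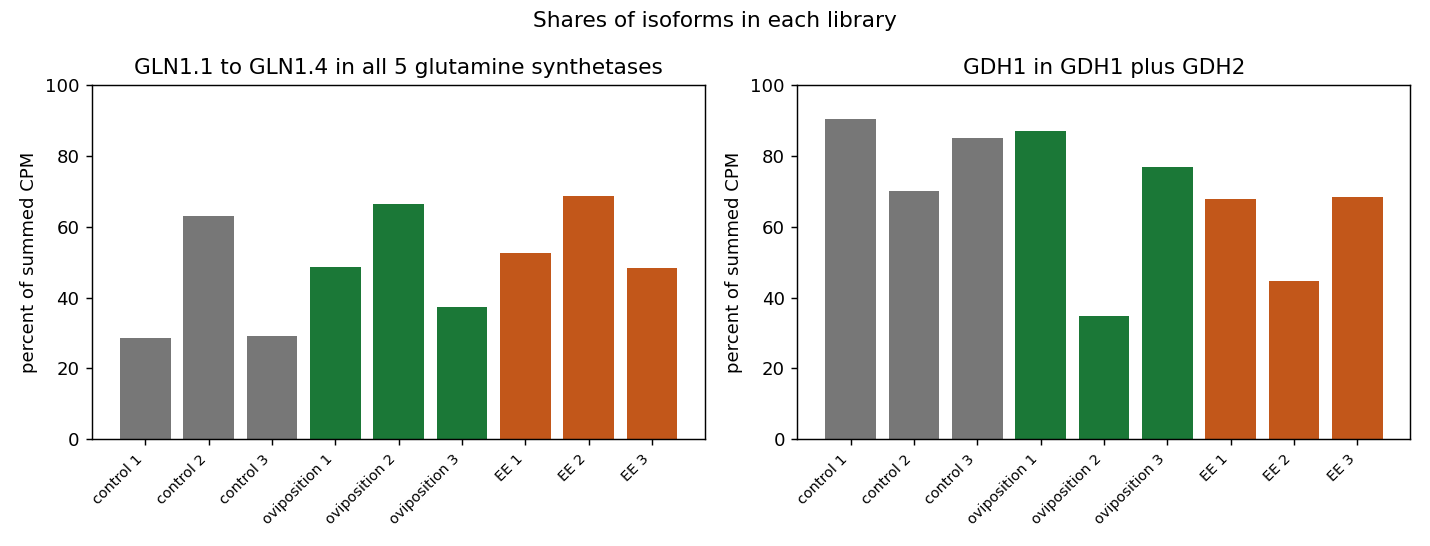
Percent of summed CPM (vertical axes) held by GLN1.1 to GLN1.4 among all 5 glutamine synthetases (left) and by GDH1 among GDH1 and GDH2 (right), 1 bar per library. Cytosolic shares run from 28.5% in control replicate 1 to 68.6% in EE replicate 2, and the GDH1 share is lowest, at 34.7%, in oviposition replicate 2.

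The replicate 2 libraries differed from replicates 1 and 3 in the same way in all 3 groups for 4 of the 8 genes. *GLN1.4* in replicate 2 was above the mean of replicates 1 and 3 by 4.32 in control, 3.06 after oviposition and 3.29 after EE on the log2 scale. *GLN1.1* was above it by 1.32, 1.33 and 1.38. Both genes were thus high in the same libraries. *GDH1* lay at -2.15, -2.30 and -2.25 relative to that mean, and *ASN2* at -3.38, -2.93 and -2.79. For these 4 genes the 3 replicate 2 libraries did not overlap with the other 6, as for 8.66% of all genes on the high side and 9.81% on the low side. The spread within groups (pooled SD on the log2 scale) was 2.09 for *GLN1.4*, 1.77 for *ASN2* and 1.31 for *GDH1*, against a median of 0.45 over all genes. For the other members it was 0.80 (*GLN1.1*), 0.60 (*GLN1.3*), 0.51 (*GDH2*), 0.45 (*GS2*) and 0.30 (*GLN1.2*).

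Of 3 relatives and 3 glutamate synthases in the table, 1 (*ASN3*) lay above and 2 (*ASN1* and *GLT1*) below in all replicate 2 libraries, beside 8.66% and 9.81% of all genes, and *GDH3*, *GLU1* and *GLU2* overlapped. *ASN1*, the asparagine synthetase that darkness induces, had log2 CPM of 5.34, -1.72 and 6.34 in control, 3.89, 1.22 and 4.71 after oviposition and 5.30, 1.004 and 5.09 after EE. It was thus lowest in replicate 2 of every group. *GLT1*, the NADH-dependent glutamate synthase, lay at -2.30, -2.50 and -1.88 relative to replicates 1 and 3, and *ASN3*, a further asparagine synthetase, at 0.68, 1.08 and 1.12. The summed mesophyll markers were lower in replicate 2, at 9559 to 11738 CPM against 18590 to 105771 CPM in the other 6 libraries. Of the 4, 3 lay below without overlap. *CAB1*, the marker with the highest mean CPM in each group, overlapped and ranged from 12.21 to 16.09 log2 CPM in control. The phloem companion cell markers summed to 701 to 725 CPM against 813 to 963 CPM, but only *AHA3* of the 5 lay below without overlap, and *SUC2*, *APL* and *NAKR1* differed by 0.016, -0.042 and 0.17 on the log2 scale. Their part in the split was not tested.

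**Figure D4:**
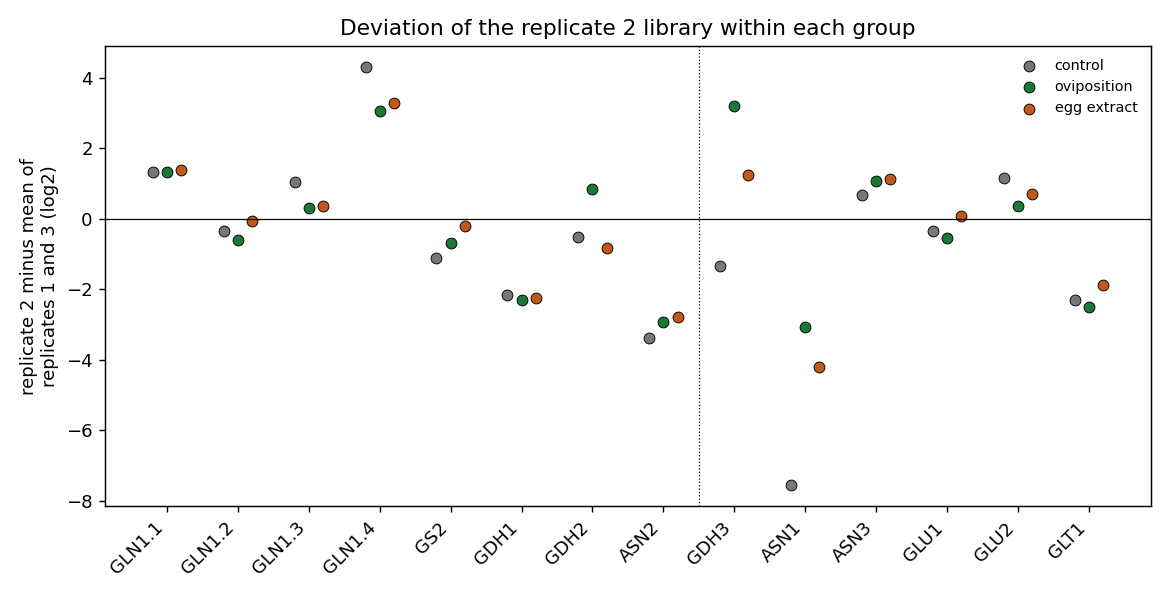
Log2 CPM of the replicate 2 library minus the mean of replicates 1 and 3 in each group (vertical axis) for the 8 genes (left of the dotted line) and for related asparagine synthetases, GDH3 and the glutamate synthases (right). GLN1.1 and GLN1.4 are above 0 and GDH1 and ASN2 below 0 in all 3 groups, while GDH2 and GDH3 change sign between groups.

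The remaining relatives did not pass the test in any of the comparisons. *GLN1.5* was not among the genes of the table. *GDH3* was low, with -1.70 to 2.55 log2 CPM and 13 to 257 reads per library, and its log2 fold change was -0.51 ± 0.99 for oviposition and -1.61 ± 0.99 for EE. For *ASN3* these were -0.31 ± 0.45 and -0.28 ± 0.45, and for *ASN1* -0.05 ± 2.08 and 0.48 ± 2.08. The glutamate synthases, partners of glutamine synthetase in the cycle, gave 0 calls of 3 in each comparison. *GLU1*, the ferredoxin-dependent enzyme of leaves, had 10.41, 9.89 and 10.06 log2 CPM in control and 9.26, 9.42 and 9.40 after EE, without overlap, and its log2 fold change was -0.76 ± 0.34 (adjusted p = 0.374 in limma). After oviposition it was -0.43 ± 0.34. *GLU2*, a second ferredoxin-dependent gene, had log2 fold changes of 0.31 ± 0.42 and 0.79 ± 0.42, and *GLT1* 0.44 ± 0.92 and 0.93 ± 0.92, for oviposition and EE in that order.

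Around the 8 genes, lists of nitrogen genes were described by their calls. For these and the lists below, 1.5% of all genes were called for oviposition and 3.02% for EE. The median log2 fold change of all genes was -0.02 and -0.04. Of 13 genes for nitrate and ammonium uptake and reduction, 1 rose after EE and 0 passed after oviposition. The gene that rose was *NRT1.8*, a nitrate transporter that takes nitrate out of the xylem, with a log2 fold change of 6.52 ± 0.68 (adjusted p = 0.00147 in limma), and after oviposition its value was 3.42 ± 0.68 (adjusted p = 0.0502 in limma). For oviposition *NRT1.8* was called with no trend or weights per library, and without oviposition replicate 1. It was also called with the replicate block, although replicate numbers did not pair oviposition with control by the limit used. The control libraries of *NRT1.8* were near the floor, at -3.03, -3.76 and -2.48 log2 CPM with 3 reads or more. These fold changes thus rest on few control reads. The median log2 fold change of this list was 0.64 for oviposition and 0.68 for EE. Of 11 aminotransferases and asparaginases none passed, with medians of 0.33 and 0.55. The largest differences there were those of the asparaginase *ASPGB1*, at 2.77 ± 1.23 and 4.67 ± 1.23 (adjusted p = 0.661 and 0.104 in limma), a gene with 0 reads in 1 control library, so that its fold changes depend on the value given to a count of 0.

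Of 6 genes that make or break down gamma-aminobutyrate (GABA) or supply 2-oxoglutarate, 1 rose after oviposition and 2 after EE. *GAD4*, a glutamate decarboxylase, had log2 CPM of -0.56, 0.51 and -2.03 in control, 2.15, 3.34 and 2.06 after oviposition and 2.94, 3.14 and 2.37 after EE. Control libraries lay below all others. Its log2 fold changes were 3.21 ± 0.64 (adjusted p = 0.0492) and 3.51 ± 0.64 (adjusted p = 0.0204 in limma). The other gene called after EE was *GAD1*, also a glutamate decarboxylase and named here after its values were seen. Its log2 fold change was 3.46 (adjusted p = 0.0310 in limma). Its control libraries were at -2.59, -0.56 and -2.48 log2 CPM with 5 reads or more, so its fold changes rest on few control reads. For oviposition the log2 fold change of *GAD1* was 3.17 (adjusted p = 0.0693 in limma, and 0.0112 with the replicate block). The block value is no basis for a call, as replicate numbers did not pair oviposition with control by the limit used. The calls of both genes were lost with voom on recovered reads. That of *GAD4* for oviposition was lost when any library except control replicate 2 was left out (adjusted p up to 0.200 in limma), and that for EE without control replicate 1 or any EE library (up to 0.0989). *GAD1* lost its call for EE without control replicate 1 or 3, oviposition replicate 3 or any EE library (up to 0.122 in limma). The list medians were 0.13 and 0.26.

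None of 12 photorespiration genes passed the test, and 10 of the 12 had a negative log2 fold change after EE, with a median of -0.34, against 7 of 12 and -0.07 after oviposition. The most negative value was that of *SHM1*, the mitochondrial serine hydroxymethyltransferase, at -1.18 ± 0.44 after EE (adjusted p = 0.275 in limma) and -0.57 ± 0.44 after oviposition. Of 9 senescence genes 1 rose in each comparison with control in the fit without replicate block or library weights. The medians were 1.73 for oviposition and 1.81 for EE, with positive values for all 9. The gene that rose was *SAG13*, a dehydrogenase gene used as a marker of the response to eggs, with log2 fold changes of 6.08 ± 0.87 and 7.32 ± 0.87 (adjusted p = 0.0114 and 0.00261 in limma). Without oviposition replicate 2 or 3 the call for oviposition was lost (adjusted p up to 0.0556 in limma). Control libraries of *SAG13* were at 0.56, 2.11 and -1.84 log2 CPM, so its fold changes rest partly on a library with 8 reads. With the replicate number as a block, 1 more gene of this list passed for EE, *SAG21*, which encodes a late embryogenesis abundant protein and is named here after its values were seen. Its log2 fold change was 2.54, with an adjusted p of 0.0105 in limma with the block and 0.0902 without it. For oviposition that of *SAG21* was 2.02, with an adjusted p of 0.0390 in limma with the block and 0.312 without it. By the limit used, replicate numbers did not pair oviposition with control, so this block value is no basis for a call. Since *SAG13* was among the genes the study selected on these libraries, its rise is not independent evidence. EE against oviposition gave 0 calls in limma for each of these lists.

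**Figure D5:**
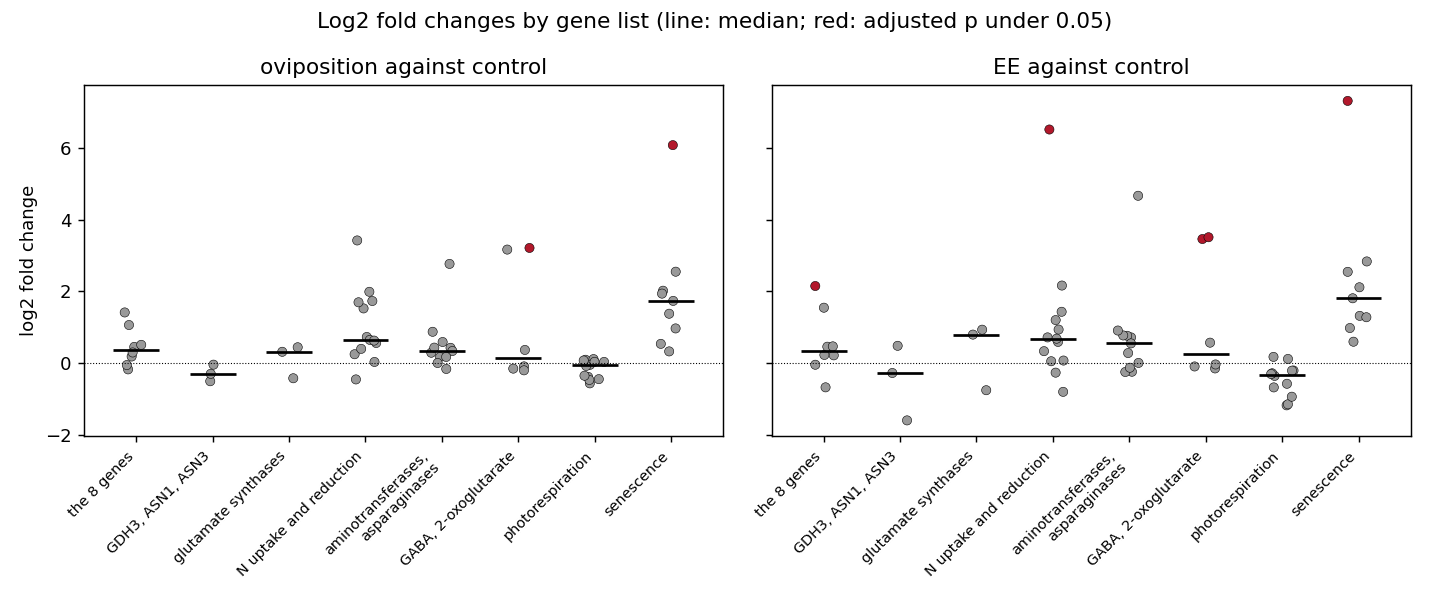
Log2 fold changes (vertical axis) against control for the 8 genes and 7 lists of related genes after oviposition (left) and EE (right), 1 point per gene. Lines are list medians and red points have an adjusted p under 0.05, which only GDH2 among the 8 genes reached, at 2.15 after EE.

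Of the marker lists none had a call. The guard cell markers were not of 1 direction: *MYB60* had log2 fold changes of -1.07 ± 0.51 for oviposition and -1.34 ± 0.51 for EE and *FMA* -0.63 ± 0.29 and -0.58 ± 0.29, but *KAT1* had 0.22 ± 0.34 and 0.30 ± 0.34. Of 5 phloem companion cell markers 2 were positive for oviposition, *PP2-A1* with 0.32 ± 0.39 being farthest from 0, and the median was -0.04. For EE all 5 were positive, with a median of 0.086 and *APL*, a regulator of phloem identity, farthest from 0 at 0.36 ± 0.21. The median of the 4 mesophyll markers was 0.084 for oviposition, with 2 positive, and -0.43 for EE, and *CAB1* for oviposition (0.31 ± 1.59) and *CAB2* for EE (-0.88 ± 2.52) were farthest from 0. Of the root markers, *SHR* had 0.12 ± 0.54 for oviposition and *SCR* 0.22 ± 0.28 for EE.

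The genes whose log2 CPM over the 9 libraries was most like that of *GDH2*, among 16952 genes with a mean of at least 0, were *AT1G14330* (Pearson r = 0.977), *ATGSTU3* (0.969), a glutathione S-transferase gene, and *AT1G23850* (0.968). Their log2 fold changes were 0.999, 8.49 and 2.87 for EE (adjusted p = 0.126, 0.00247 and 0.0101 in limma). For oviposition they were 0.58, 5.39 and 1.55 (adjusted p = 0.737, 0.0335 and 0.208 in limma). *ATGSTU3* had a control mean of -3.97 log2 CPM, near the floor, so its fold changes rest on few control reads. Most like *GLN1.3* were *AT1G60420* (0.976), *AT1G55265* (0.970) and *IDH1* (0.970), a subunit of mitochondrial isocitrate dehydrogenase. Their log2 fold changes for EE were 0.53, 1.502 and 0.38, and none passed the test (adjusted p = 0.394, 0.138 and 0.504 in limma). The libraries share treatments and replicate numbers, so these values are descriptions of likeness over 9 libraries.

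The promoters of *GDH2* and *GLN1.3*, whose control libraries lay below all treated ones, and of *GS2*, the member with the highest mean in each group though not in replicate 2, are shown as the 250 bases before the RefSeq start of the gene. They were searched on both strands for the W-box letters TTGACC and TTGACT, the G-box CACGTG, the letters TGACG and the letters ACTCAT, and capitals mark matches. They lie at chr5:2355509-2355758, chr3:6096951-6097200 and chr5:13830179-13830428 of TAIR10.1, all on the plus strand, in the order given.
GDH2: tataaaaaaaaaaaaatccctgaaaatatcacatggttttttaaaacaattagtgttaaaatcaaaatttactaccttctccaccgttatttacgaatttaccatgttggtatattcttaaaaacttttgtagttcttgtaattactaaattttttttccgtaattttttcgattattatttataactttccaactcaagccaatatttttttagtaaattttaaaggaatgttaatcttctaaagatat
GLN1.3: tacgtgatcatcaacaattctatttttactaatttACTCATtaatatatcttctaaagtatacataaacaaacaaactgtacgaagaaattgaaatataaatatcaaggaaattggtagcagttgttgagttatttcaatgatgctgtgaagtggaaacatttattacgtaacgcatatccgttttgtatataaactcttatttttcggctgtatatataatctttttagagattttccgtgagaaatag
GS2: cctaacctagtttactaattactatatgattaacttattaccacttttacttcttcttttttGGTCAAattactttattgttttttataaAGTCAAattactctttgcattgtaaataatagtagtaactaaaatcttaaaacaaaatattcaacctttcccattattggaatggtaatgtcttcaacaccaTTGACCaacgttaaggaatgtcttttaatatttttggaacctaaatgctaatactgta

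*GDH2* had no match, *GLN1.3* had ACTCAT 215 bases before the start, and *GS2* had TTGACC at 188 and 58 bases and TTGACT at 160 bases before it. Of the others, *GLN1.2* had TTGACT at 103 bases, *GLN1.4* TTGACC at 141 bases and *GDH1* CACGTG at 40 bases, and *GLN1.1* and *ASN2* had none. TGACG was in none of the 8. Among 27443 promoters of the same length, 12.2% held TTGACC, 19.1% TTGACT, 6.49% CACGTG, 18.6% TGACG and 12.3% ACTCAT. These are shares of promoters with any match, so they give no background for several matches in the same promoter, as in *GS2*. A match is a description of letters in this window.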

How the data were processed

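The authors sequenced stranded mRNA libraries of leaves on an Illumina HiSeq instrument, mapped reads to TAIR10 with STAR and counted them per gene. The submitters' processing notes also name cutadapt 1.5 and HTSeq. They normalized counts by the trimmed mean of M-values and library size and deposited log2 CPM, in which every library has a median of 4.19. The filter that left 17605 genes is not given in the sources used here. Their deposited fold changes and p-values were not used. Whole reads were recovered from the log2 values: 100% of 158445 values were whole within 0.01 reads, allowing 0.5 reads added before the logarithm. Fitted library size over recovered reads was 0.700 to 1.20.

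The log2 values were compared with limma 3.58.1 in R 4.3.3, with 1 mean per group over 9 libraries and moderated variances following the mean trend. Two-sided p-values were corrected across all 17605 genes of a comparison (Benjamini-Hochberg), with a threshold of 0.05. Groups were taken from the labels, with 3 libraries each, and SE values are those of limma. Replicate numbers were checked by correlating, across genes, deviations from group means of libraries with the same number. For EE with control r was 0.335, 0.775 and 0.318 and for EE with oviposition 0.553, 0.764 and 0.526, all above the limit of 0.1, while oviposition with control gave 0.0226, 0.674 and -0.157. By this limit, the block is given beside EE results where it changed a call, and for some genes where it did not. Oviposition with control fell short of the limit, so block values given for it are no basis for a call. Libraries of unlike number correlated as well: control replicate 3 with EE replicate 1 gave 0.432, and control replicate 1 with EE replicate 3 gave 0.349. Thus for EE with control only replicate 2 correlated best with its own number.

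Sequences and annotated exon lengths came from RefSeq TAIR10.1. Of 17512 nuclear genes in both, 100% overlapped on the same chromosome. Python 3.11.15 and matplotlib 3.10.9 made the plots. Alternatives were no trend, vooma, the replicate block, only the groups compared, quantile normalization, 1 CPM added, a mean of at least 0, voom on recovered reads, weights per library, an adjusted p under 0.01 and leaving out each library. Replicates 1 and 3 only was added after the data were seen. The script was tested on simulated data. Members, gene lists and the rule for named genes (all members and relatives, the largest difference of each other list in each comparison with control, and 3 genes most like each of the 2 members with the smallest adjusted p) were chosen with earlier results of these data known.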

Additional observations from a re-analysis of the deposited data

How the results depend on the processing

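*GDH2* kept its direction in EE against control in all alternatives. The number of the 8 genes called in that comparison was 1 and became 2 with the replicate block or weights per library, the added gene being *GLN1.3*, and 0 at an adjusted p under 0.01. It was 0 to 2 when a library was left out, with 0 without control replicate 1, EE replicate 1 or EE replicate 3 and 2 without control replicate 2. Oviposition against control and EE against oviposition stayed at 0 calls in every alternative. Calls among the listed related genes were 2 for oviposition, and 1 with vooma, quantile normalization, the filter, voom on recovered reads or replicates 1 and 3 only, 5 with the replicate block, 3 with no trend or weights per library, 0 with only the groups compared or at an adjusted p under 0.01, and 0 to 3 when a library was left out. For EE they were 4, and 2 with vooma, only the groups compared, voom or an adjusted p under 0.01, 3 with quantile normalization or 1 CPM added, 5 with the replicate block, 6 with weights per library, and 2 to 7 when a library was left out (7 without control replicate 2). Over all genes, rises numbered 263 for oviposition (54 to 376 over the alternatives) and 481 for EE (200 to 626). The replicate block moved all calls for EE from 532 to 775, with falls from 51 to 149, and in EE against oviposition from 3 to 1. For oviposition, it moved them from 264 to 387, although there the numbers do not pair the libraries by the limit used. Only replicate 2 correlated best with its own number for oviposition with control, and the same held for EE with control.

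Values with no call changed sign in places. Weights per library gave *ASN2* -0.73 for oviposition and 0.11 for EE, and in EE against oviposition *GLN1.2* 0.16, *GLN1.3* -0.034, *GLN1.4* -1.26 and *ASN2* 0.84. Quantile normalization gave *ASN2* 0.039 for EE and, in EE against oviposition, *GLN1.1* 0.026 and *GLN1.2* 0.15. Voom gave *ASN2* 0.015 for EE and *GLN1.2* 0.023 in EE against oviposition, where replicates 1 and 3 only gave *GLN1.4* -0.044. Leaving out a library gave, for oviposition, *GLN1.4* -0.84 to 1.62, *GS2* -0.55 to 0.079, *GDH1* -0.78 to 0.71 and *ASN2* -0.84 to 1.27. For EE it gave *GLN1.1* -0.24 to 0.66, *GLN1.4* -0.88 to 1.65, *GDH1* -0.25 to 1.21 and *ASN2* -1.18 to 0.88. For EE against oviposition it gave *GLN1.1* -0.68 to 0.22, *GLN1.2* -0.26 to 0.20, *GLN1.4* -1.06 to 1.05, *GDH1* -0.25 to 1.27 and *ASN2* -1.32 to 0.59. The cause was not tested.

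With 3 libraries a group, the limma p-values weigh a difference of means against a moderated spread of libraries within groups. The labels do not say whether replicate numbers mark the 3 independent experiments. Read depth was high for the 8 genes, so their precision was limited by the spread between libraries.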

Other observations

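The summed level of *GDH1* and *GDH2* was 166.9, 50.8 and 194.4 CPM in control libraries 1, 2 and 3, 228.8, 91.4 and 160.4 CPM after oviposition and 310.5, 105.1 and 342.6 CPM after EE. Set against the summed level of the 5 glutamine synthetases, it came to 9.27%, 2.87% and 8.74% in control, 10.996%, 4.32% and 8.38% after oviposition and 21.3%, 5.28% and 23.8% after EE. In replicates 1 and 3 the EE-treated libraries were above all others, and in replicate 2 all 3 groups were low. The 5 glutamine synthetases summed to 1771 to 2224 CPM in control, 1915 to 2119 CPM after oviposition and 1441 to 1990 CPM after EE, so their total varied less than the share of the cytosolic isoforms within it.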
